A study of Rattus norvegicus with 8 samples.

Results

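The liver-enriched transcription factors described here are Hnf4a, Foxa1, Foxa2, Foxa3, Cebpa, Cebpb, Onecut1 and Prox1. They were taken by gene symbol from a deposited table of RNA sequencing read counts, so the group holds 8 of its 30562 genes. All 8 passed the filter on low counts, as did 16591 genes of the table. The study measured RNA in rat liver to ask how atorvastatin (AT), a statin that inhibits cholesterol synthesis, acts together with hexachlorobenzene (HCB), a chlorinated fungicide and persistent pollutant. Per the labels the animals were male Wistar rats that weighed 160 g at the start, and 20 rats were split at random into 4 groups of 5. Control rats received vehicle, AT rats a stated 5 mg/kg of atorvastatin per day in the drinking water, HCB rats 100 mg/kg by gavage 3 times a week for 30 days, and AT+HCB rats both agents. The same labels describe the water as holding 5 mg of atorvastatin in the 20 mL given to each rat per day, so the dose received is uncertain. All rats were killed on day 37, and 2 livers per group were sequenced, each from a separate animal. The atorvastatin rats and the control rats are called unexposed here, and the rats of the other groups HCB-labelled.

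These factors are the core of the network that gives hepatocytes their identity. HNF4A is a nuclear receptor that binds the promoters of a large share of hepatocyte genes, and the FOXA proteins are forkhead factors that open closed chromatin in the foregut endoderm and liver. C/EBPα drives metabolic genes of the quiescent hepatocyte, while C/EBPβ is induced in the acute phase response and in regeneration. ONECUT1 (HNF6) and PROX1 act in the outgrowth of the liver bud and in the choice between hepatocyte and bile duct fates. The factors bind one another's promoters, so their levels are usually held in proportion to each other.

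Before any result, the labels were set against marker genes, and they did not all match. The 4 Y-linked genes Ddx3, Kdm5d, Eif2s3y and Uty summed to between 135 and 217 CPM (counts per 1e6 normalised counts) in the HCB-labelled libraries and to between 0.900 and 1.90 CPM in the unexposed ones, although all rats are labelled male. Markers of hepatoblasts, the fetal precursors of hepatocytes, summed to between 246 and 433 CPM in the HCB-labelled libraries and to between 37601 and 51391 CPM in the unexposed ones, with 7 of 8 lower by test. Erythroid precursor markers spanned 12.5 to 55.7 CPM against 158 to 744 CPM (8 of 8 lower), neutrophil lineage markers 0.401 to 3.42 CPM against 129 to 219 CPM (6 of 7 tested lower), and proliferation genes 13.6 to 40.7 CPM against 203 to 492 CPM (5 of 5 lower). Hepatocyte markers overlapped as a sum, from 147416 to 232113 CPM in the HCB-labelled libraries and from 112357 to 215773 CPM in the unexposed ones. Single markers moved both ways, with 3 higher and 2 lower of 10 tested, where 21.3% of all genes were called higher and 25.3% lower. The defining marker Apoa1 lay lower with no overlap, at 348 to 777 CPM against 2055 to 3079 CPM. The defining markers Alb and Ttr were abundant in every library, which fits the liver label. Each comparison of HCB-labelled with unexposed libraries therefore also compares libraries that differ in Y-linked and fetal liver genes. HCB exposure cannot be told apart from these differences, and their part in the results below was not tested.

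Assigned reads ranged from 29.4 M to 52.0 M per library (M, reads in units of 1e6), and each factor was read from between 223 and 28584 counts per library. The share of reads outside annotated exons was 15.3% to 34.04% in the unexposed libraries, highest in AT 1 (34.04%) and control 1 (27.7%). It was 7.46% to 11.4% in the HCB-labelled ones, with no overlap. HCB exposure cannot be told apart from this difference either, and its part in the results was not tested. Reads aligned to more than 1 place made up 20.3% in control 1, 21.0% in AT 1 and 19.4% in HCB 1. In the other libraries they made up 10.4% to 13.2%. Libraries of 1 group differed by far more than counting noise, so all 8 were kept as separate samples.

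The start regions of 3 of the factors are shown because the factors are known to bind one another's promoters, and because Hnf4a and Cebpb passed the test in both separate comparisons of hexachlorobenzene-exposed with unexposed livers and Cebpa is the partner of Cebpb. RefSeq promoter windows on the GRCr8 build were found for 5 factors, as 6 windows, since Hnf4a is listed with 2 starts 35616 bases apart, of which the upstream one is printed. The 250 bases before the start are given 5′ to 3′ in the direction of transcription, with capitals for the matches of 5 searched motifs on either strand.
Hnf4a, upstream start (chr3:172605970-172606219, plus strand): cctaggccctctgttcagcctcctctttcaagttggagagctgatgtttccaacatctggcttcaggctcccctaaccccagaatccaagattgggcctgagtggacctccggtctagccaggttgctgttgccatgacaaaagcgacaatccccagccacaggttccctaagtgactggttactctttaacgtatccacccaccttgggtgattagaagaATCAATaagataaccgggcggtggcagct
Cebpa (chr1:96896334-96896583, plus strand): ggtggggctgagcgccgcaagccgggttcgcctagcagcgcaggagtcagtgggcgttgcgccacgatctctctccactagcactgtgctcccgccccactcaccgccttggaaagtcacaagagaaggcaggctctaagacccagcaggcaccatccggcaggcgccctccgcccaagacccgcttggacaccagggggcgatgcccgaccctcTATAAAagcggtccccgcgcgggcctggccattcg
Cebpb (chr3:176816755-176817004, plus strand): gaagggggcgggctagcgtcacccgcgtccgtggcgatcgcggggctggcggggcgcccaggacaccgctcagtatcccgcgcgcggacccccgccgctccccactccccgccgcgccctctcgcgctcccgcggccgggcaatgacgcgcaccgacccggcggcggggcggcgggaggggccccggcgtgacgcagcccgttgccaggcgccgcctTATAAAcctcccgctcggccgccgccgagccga

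The window at the upstream Hnf4a start holds the ONECUT core ATCAAT, whose first base lies 29 bases before the start. The Foxa2 window, not printed, holds its reverse complement ATTGAT, 136 bases before the start, so 2 of the 6 windows hold this motif. At the downstream Hnf4a start the window holds no match to any of the 5 motifs. This motif, or its reverse complement, occurs in 7.10% of all 33469 windows of 300 bases. Cebpa and Cebpb each hold a TATAAA box, which starts 35 and 33 bases before the start, a motif found in 12.9% of windows. Foxa2 and Foxa3 hold it as well, so 4 of the 6 windows do. The Cebpb window is 80.0% G and C, against a median of 51.2% over all windows, and the Cebpa window 67.2%. None of the 6 windows holds the FOXA motif TGTTTAC (3.21% of all windows), the C/EBP motif TTGCNNAA (9.22%) or the HNF4 motif CAAAGTCCA (0.338%). These matches describe letters in a window, not bound sites.

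In the deposited table, on the mRatBN7.2 build, Hnf4a (ENSRNOG00000008895) is a single row that spans 152186787 to 152248320 on chromosome 3. The counts therefore do not separate transcripts by their start. Both starts above are placed on GRCr8, and whether this row covers them was not checked. Cebpa (ENSRNOG00000010918, chromosome 1, 87759433 to 87762412) is listed there as a lncRNA of 1 exon on the minus strand, while RefSeq lists Cebpa as protein coding on the plus strand. Counting used no strand, so reads of either strand fell into this row. A pseudogene row on the opposite strand has all of its 480 bases within this row and holds 0 reads in all libraries. A read that falls on both rows may be left unassigned, so the 0 reads do not show that the Cebpa count is complete there. Levels that divide by all 2980 bases of the row may therefore be too low for Cebpa, which was not tested.

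Levels of different genes were compared as TPM, counts divided by gene length and scaled to a sum of 1e6. In the control libraries Cebpa stood highest at 219 and 162 TPM, followed by Hnf4a at 192 and 149.98 TPM, and these neighbours in the order overlapped. Prox1 came next at 138 and 117 TPM, then Foxa3 at 109 and 81.7 TPM and Onecut1 at 58.8 and 41.4 TPM, with no overlap between neighbours. Cebpb at 36.0 and 20.3 TPM overlapped Foxa1 at 24.0 and 18.7 TPM, and Foxa2 was lowest at 12.3 and 8.98 TPM. The AT libraries gave the same order of group means, with wider ranges that overlapped for every pair of neighbours from Cebpa down to Cebpb.

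Both HCB-labelled groups had another order. Hnf4a stood first, at 167 and 302 TPM in the HCB libraries and 251 and 269 TPM in the AT+HCB libraries, above Cebpa at 160.1 and 153 TPM and at 162 and 159.9 TPM, with no overlap in either group. Within each of the 4 HCB-labelled libraries Hnf4a exceeded Cebpa, and within each of the 4 unexposed libraries Cebpa exceeded Hnf4a, a comparison chosen after its values were seen. By group means Prox1 remained in the third place, Cebpb moved from the sixth place to the fourth, and Onecut1 moved from the fifth to the seventh. Cebpb overlapped Foxa3 in both groups, and Onecut1 overlapped Foxa1 and Foxa2 in both, so these places do not separate beyond the spread. In HCB 1, Prox1 at 39.0 TPM lay below Foxa3 at 53.3 and Cebpb at 41.1 TPM. Foxa2 had the lowest mean in all 4 groups, although in AT_HCB 2 Onecut1 lay lower, at 11.9 against 21.5 TPM. Over the 8 libraries the mean level of Hnf4a was 221 TPM, above 97.5% of the genes tested, and that of Foxa2 was 14.2 TPM, above 66.2%.

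**Figure D1:**
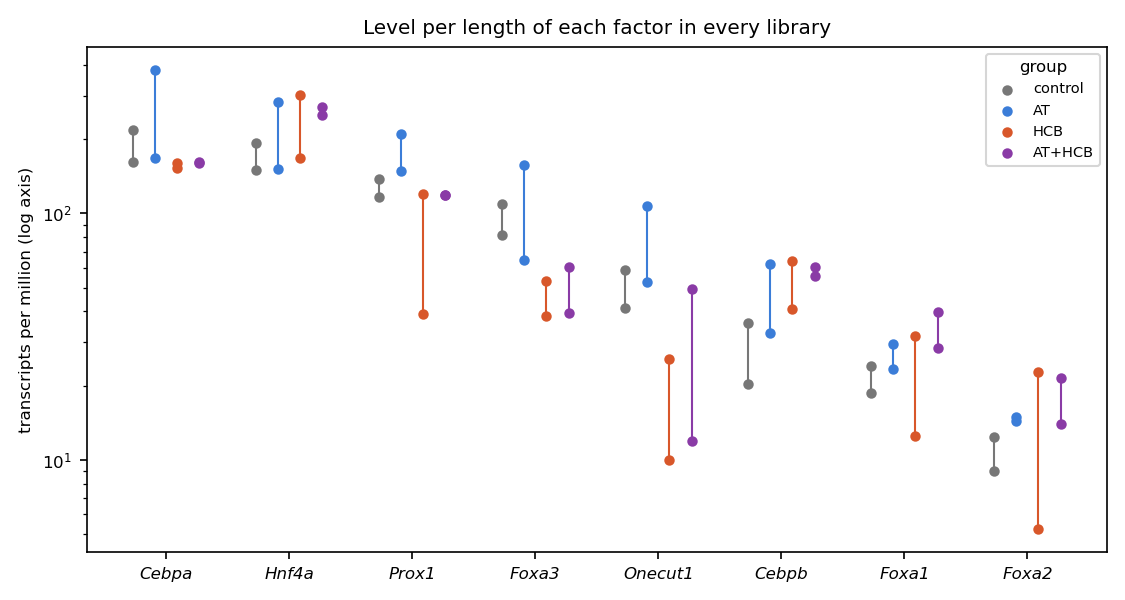
TPM (log axis) of each factor in every library, with factors ordered by their mean in the control group and 1 line joining the 2 libraries of a group. Cebpa lies above Hnf4a in the control and AT libraries and below it in the HCB and AT+HCB libraries, and the widest gaps within a group are those of Foxa2 in HCB and Onecut1 in AT+HCB.

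Differences between groups were tested on counts with edgeR's quasi-likelihood test, scaled by the trimmed mean of M-values (TMM), with Benjamini-Hochberg adjustment over the 16591 genes and a threshold of 0.05. Across the 4 HCB-labelled and 4 unexposed libraries, 3 of the 8 factors rose (Hnf4a, Foxa1 and Cebpb) and 0 fell. Of all genes tested 46.6% were called in this comparison, 21.3% as higher and 25.3% as lower, so a share of called members near that size is not a result about these factors. The median log2 difference of the 8 factors was 0.43, and that of all genes tested was -0.11. In a whole liver, more cells of a type and more RNA per cell cannot be told apart.

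Scaling bears on each of these values. When libraries were scaled to their totals with no TMM factor, the median gene's log2 difference shifted by -0.53, and 1 of the 3 called factors, Cebpb, kept its call. Relative to the median gene of the same scaling, Hnf4a stood at 1.05 with TMM and 1.04 with library totals, Foxa1 at 0.88 and 0.89, and Cebpb at 1.31 and 1.29, all on the log2 scale. The values below use TMM, and the directions are relative to the median gene where the text says so.

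Hnf4a rose in the HCB-labelled livers. Its level was 311 and 320.1 CPM in the control libraries, 398 and 283 CPM in the AT libraries, 496 and 712 CPM in the HCB libraries, and 668 and 643 CPM in the AT+HCB libraries. Every HCB-labelled library exceeded every unexposed one, and the 2 control libraries lay closer together than those of the AT and HCB groups. The log2 difference was 0.94 ± 0.22 (SE, adjusted p = 0.00497). In the TMM-scaled data 21.8% of the genes tested were higher with no overlap. On library totals the Hnf4a ranges overlapped, and the log2 difference of 0.40 was not called (adjusted p = 0.158).

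Cebpb had the largest log2 difference of the 8 factors with TMM and all 8 libraries, while on library totals Onecut1 (-1.40) and Foxa3 (-1.03) lay further from 0. Its level was 28.3 and 21.1 CPM in control, 43.0 and 29.6 CPM in AT, 59.5 and 73.8 CPM in HCB, and 72.4 and 70.8 CPM in AT+HCB. The HCB-labelled libraries all lay above the unexposed ones, and AT 1 was the highest of the unexposed. The log2 difference was 1.21 ± 0.18 (adjusted p = 0.000409), and on library totals it was 0.65 (adjusted p = 0.0472) with overlapping ranges. Cebpb is also expressed in myeloid cells. The neutrophil lineage markers were lower in the HCB-labelled libraries, with Elane listed at 0 in some of them, and Kupffer cell and macrophage markers overlapped as a sum, at 273 to 461 CPM in the HCB-labelled libraries against 234 to 390.5 CPM in the unexposed ones. Single markers moved both ways, with 2 higher and 1 lower of 7 tested. The Kupffer cell markers Vsig4 (25.9 to 48.8 against 2.71 to 4.78 CPM) and Clec4f (82.3 to 141 against 28.6 to 59.5 CPM) rose with Cebpb, and the scavenger receptor Marco fell (10.6 to 39.1 against 47.0 to 81.1 CPM). On library totals these 3 kept their calls, and Cd163, Adgre1 and Csf1r were called lower as well. Their part in the Cebpb difference was not tested.

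Cebpa, the partner of Cebpb in metabolic gene control, was read at 217 and 212 CPM in control, 331 and 191 CPM in AT, 291 and 222 CPM in HCB, and 263 and 234 CPM in AT+HCB. The ranges overlapped, with the highest and the lowest library both in the AT group. The log2 difference was 0.10 (95% interval -0.38 to 0.57, adjusted p = 0.736), and its sign turned to -0.46 on library totals (adjusted p = 0.125). Within each library, which needs no scaling between libraries, the ratio of Cebpa to Cebpb in TPM lay between 5.13 and 7.98 in the unexposed livers and between 2.39 and 3.89 in the HCB-labelled ones. The ranges of this ratio did not overlap, and its mean log2 value was 2.64 ± 0.26 (SD, n = 4) against 1.54 ± 0.30 (SD, n = 4). It contains Cebpb, which was itself called higher. For this ratio and those below, the share of all gene pairs whose ratios do not overlap was not computed.

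**Figure D2:**
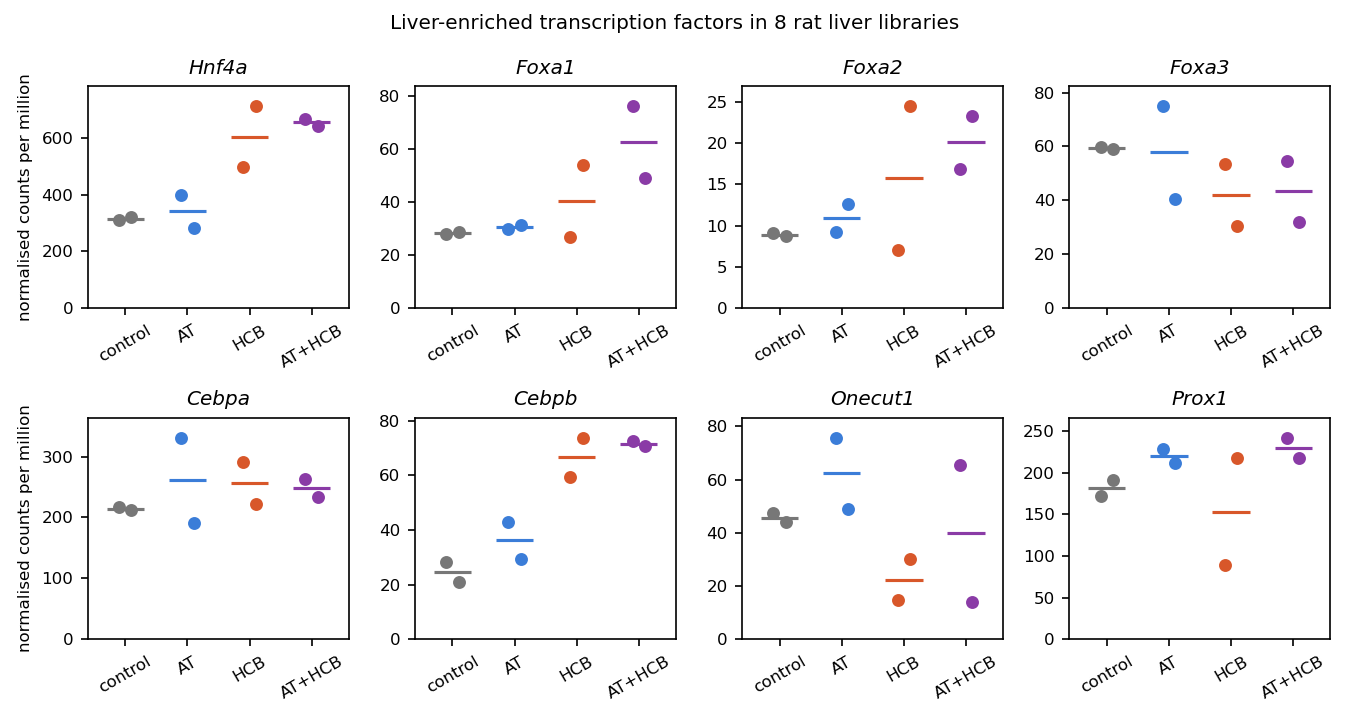
CPM of each factor (vertical axes start at 0 and differ between panels), with 1 point per library and a bar at the group mean. The HCB and AT+HCB points lie above all control and AT points for Hnf4a and Cebpb, and the 2 libraries of a group stand far apart for Foxa2 and Prox1 in HCB and for Onecut1 in AT+HCB.

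The 3 FOXA genes did not move alike. Foxa1 was read at 28.0 and 28.8 CPM in control, 30.0 and 31.3 CPM in AT, 26.8 and 54.2 CPM in HCB, and 76.3 and 49.0 CPM in AT+HCB. All HCB-labelled libraries except HCB 1 lay above every unexposed one, and HCB 1 lay below all of them. The log2 difference was 0.77 ± 0.23 (adjusted p = 0.0178). This call was lost without control 1 (adjusted p = 0.0531), HCB 2 (0.0603) or AT_HCB 1 (0.0760), and without both libraries richest in reads outside exons (0.124), as well as on library totals (0.430). Here and below, leaving out a library leaves its group with 1, which the fit assumes to vary like the other groups.

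Foxa2, which primes liver and pancreas enhancers, had the lowest mean level. Its level was 9.09 and 8.74 CPM in control, 9.24 and 12.6 CPM in AT, 7.06 and 24.5 CPM in HCB, and 16.9 and 23.4 CPM in AT+HCB. As for Foxa1, HCB 1 was the lowest of all libraries and the other HCB-labelled libraries were the highest. The log2 difference of 0.85 ± 0.32 did not pass (adjusted p = 0.0504). It passed without HCB 1 (1.20, adjusted p = 0.00198) and with DESeq2 (0.87, adjusted p = 0.0197). Markers of exocrine pancreas, a tissue that also expresses Foxa2, summed to at most 0.436 CPM in any library, with Prss1 at 0 reads in all 8.

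Foxa3, the family member that stays abundant in the adult liver, was read at 59.7 and 59.1 CPM in control, 75.0 and 40.6 CPM in AT, 53.6 and 30.6 CPM in HCB, and 54.7 and 31.8 CPM in AT+HCB. The ranges overlapped, and while the control libraries lay close together, those of the other groups differed by 1.84-fold in AT, 1.75-fold in HCB and 1.72-fold in AT+HCB. The log2 difference of -0.46 ± 0.26 was not called (adjusted p = 0.167). On library totals it was -1.03 and was called lower (adjusted p = 0.0108), and relative to the median gene it was -0.35 with TMM and -0.39 with library totals. The ratio of Foxa2 to Foxa3 within a library overlapped, from 0.0916 to 0.231 in the unexposed livers and from 0.0978 to 0.594 in the HCB-labelled ones. So did the ratio of Foxa1 to Foxa2, from 1.57 to 2.09 and from 1.33 to 2.85.

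Onecut1 varied most between rats of the same group. Its level was 47.4 and 44.1 CPM in control, 75.8 and 49.0 CPM in AT, 14.7 and 30.1 CPM in HCB, and 65.6 and 14.2 CPM in AT+HCB. All HCB-labelled libraries except AT_HCB 1 lay below every unexposed one, and AT_HCB 1 lay among the AT libraries, 4.61-fold above AT_HCB 2. The spread between libraries of a group was larger than for 90.6% of the genes tested. The log2 difference of -0.84 ± 0.43 was not called (adjusted p = 0.140). It was called without AT_HCB 1 (-1.55, adjusted p = 0.00249), with no filter on low counts (-0.83, adjusted p = 0.000190) and on library totals (-1.40, adjusted p = 0.0226). Relative to Hnf4a in the same library, Onecut1 lay between 0.276 and 0.381 in the unexposed livers and between 0.0441 and 0.197 in the HCB-labelled ones, with no overlap.

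Prox1, a homeobox factor that restrains HNF4A activity, was read at 172 and 192 CPM in control, 228 and 212 CPM in AT, 88.9 and 217 CPM in HCB, and 242 and 218 CPM in AT+HCB. HCB 1 stood apart as the lowest library, and the others overlapped. The log2 difference was -0.09 (95% interval -0.65 to 0.47, adjusted p = 0.787), and it was 0.19 without HCB 1. The ratio of Prox1 to Hnf4a did not overlap, with 0.720 to 0.974 in the unexposed livers and 0.234 to 0.472 in the HCB-labelled ones. It shares Hnf4a, itself called higher, with the Onecut1 ratio. Prox1 also marks lymphatic endothelium. The sum of the endothelial markers was 568 to 671 CPM in the HCB-labelled libraries and 688 to 834 CPM in the unexposed ones. Of these 7 markers 2 rose (Clec4g and Kdr), 2 fell (Stab2 and Flt4) and 3 did not pass. On library totals the sign of Kdr turned (0.49 with TMM and -0.036 with totals, adjusted p = 0.876), and Pecam1 and Lyve1 were also called lower. Among those also found in lymphatic vessels, Flt4 was 22.7 to 44.6 CPM against 52.7 to 67.0 CPM, Lyve1 lay between 73.6 and 105 CPM over all libraries, and Pdpn was at most 5.00 CPM. The part of endothelial cells in the Prox1 values was not tested.

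**Figure D3:**
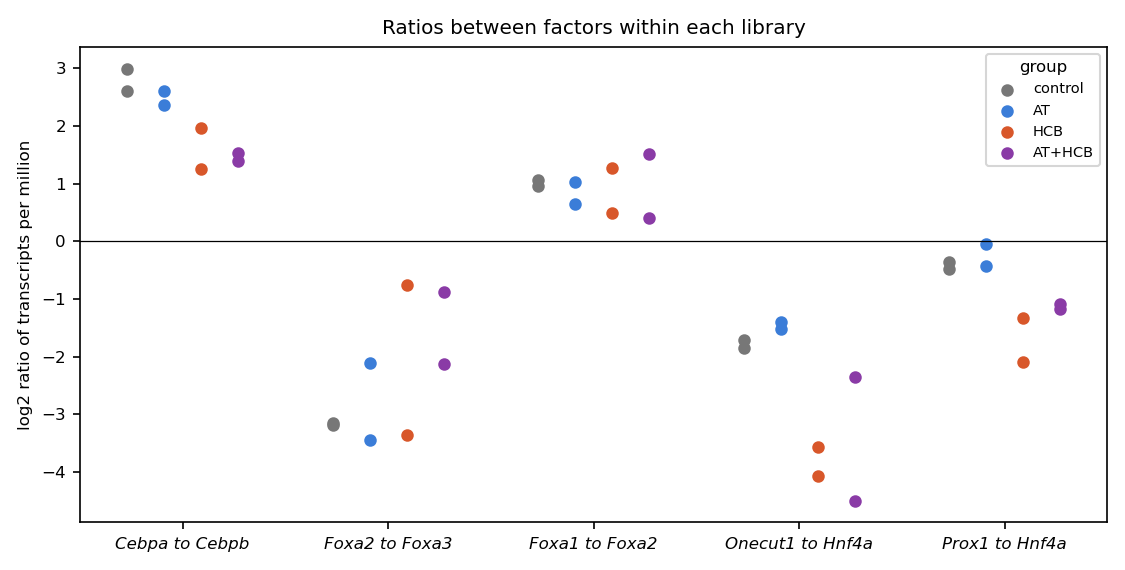
Log2 ratio of 5 pairs of factors in TPM within each library, 1 point per library, coloured by group. The HCB and AT+HCB points lie below all control and AT points for Cebpa to Cebpb, Onecut1 to Hnf4a and Prox1 to Hnf4a, and the points overlap for both FOXA ratios.

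HCB 1 and HCB 2 differed more than the libraries of any other group for Foxa1, Foxa2 and Prox1. HCB 1 was 2.02-fold lower for Foxa1, 3.45-fold lower for Foxa2, 2.04-fold lower for Onecut1 and 2.44-fold lower for Prox1, while it was 1.75-fold higher for Foxa3 and 1.31-fold higher for Cebpa. Hnf4a was 1.44-fold lower in HCB 1, and Cebpb 1.24-fold lower. The same libraries differed by gene length over all genes tested. The median log2 value of HCB 1 minus HCB 2 was 0.39 for genes under 1 kb and 0.21 from 1 to 2 kb. It was -0.01 from 2 to 4 kb, -0.17 from 4 to 6 kb and -0.26 over 6 kb. By bases of exon, Foxa3 (1646) falls in the class from 1 to 2 kb and Hnf4a (4859) in that from 4 to 6 kb. The other factors, with between 2216 and 3730 bases, fall in the class from 2 to 4 kb. The part of gene length in these members' values was not tested.

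The average above rests on a pair of comparisons that share no library. In HCB against control 2 factors rose, where 26.9% of all genes tested were called. Hnf4a differed by 0.94 ± 0.31 on the log2 scale (adjusted p = 0.0435) and Cebpb by 1.43 ± 0.26 (adjusted p = 0.00283). In AT+HCB against AT 3 factors rose, where 27.6% of all genes were called. There Hnf4a differed by 0.94 ± 0.31 (adjusted p = 0.0420), Foxa1 by 1.03 ± 0.33 (adjusted p = 0.0377) and Cebpb by 0.98 ± 0.26 (adjusted p = 0.0178). For Hnf4a the difference between these 2 values was 0.01 ± 0.43 (95% interval -0.94 to 0.95).

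These calls with 2 libraries a group were close to the threshold. Hnf4a in HCB against control was lost with the replicate number as a block (adjusted p = 0.0540), with the 2 groups fitted alone (0.0670), on library totals (0.252), and without control 1 (0.196), control 2 (0.129), HCB 2 (0.176) or either AT+HCB library (0.0730 and 0.0728). Hnf4a in AT+HCB against AT was lost with the block (0.0518), on library totals (0.504), and without control 1 (0.0605), control 2 (0.0550), AT 2 (0.178), AT_HCB 1 (0.168) or AT_HCB 2 (0.132). Cebpb in HCB against control was lost on library totals (0.98, adjusted p = 0.0623), and without any 1 library its adjusted p stayed between 0.00115 and 0.0281. Cebpb in AT+HCB against AT was lost on library totals (0.32, adjusted p = 0.494) and without AT 2 (0.104), AT_HCB 1 (0.0873) or AT_HCB 2 (0.0674). The Foxa1 call in AT+HCB against AT was lost on library totals (0.406), without AT 1 (0.129), AT 2 (0.0828) or AT_HCB 1 (0.261), and without both libraries richest in reads outside exons (0.202).

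Outside the calls, and again with the spread of a lone HCB or AT+HCB library taken from the other groups, Foxa1 in HCB against control was 0.51 ± 0.32 (adjusted p = 0.262), was called without HCB 1 (0.96, adjusted p = 0.0481) and turned to -0.08 without HCB 2. Foxa2 in the same comparison was 0.83 ± 0.46 (adjusted p = 0.206), with 1.48 without HCB 1 (adjusted p = 0.0135) and -0.34 without HCB 2. Onecut1 was -1.03 ± 0.61 (adjusted p = 0.245), and Prox1 was -0.25 ± 0.36 (adjusted p = 0.644) but -1.03 without HCB 2 (adjusted p = 0.0283). In AT+HCB against AT, Onecut1 was -0.65 ± 0.61 (adjusted p = 0.452), with -2.10 without AT_HCB 1 (adjusted p = 0.0174) and 0.10 without AT_HCB 2. The sign thus followed which of the 2 livers was kept for Foxa1, Foxa2 and Prox1 in HCB against control. The same held for Onecut1 in AT+HCB against AT. In the other comparison, with 1 library left out, each kept its sign. Foxa1 ran from 0.71 to 1.34, Foxa2 from 0.66 to 1.13 and Prox1 from 0.02 to 0.17 in AT+HCB against AT. Onecut1 ran from -1.63 to -0.58 in HCB against control.

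**Figure D4:**
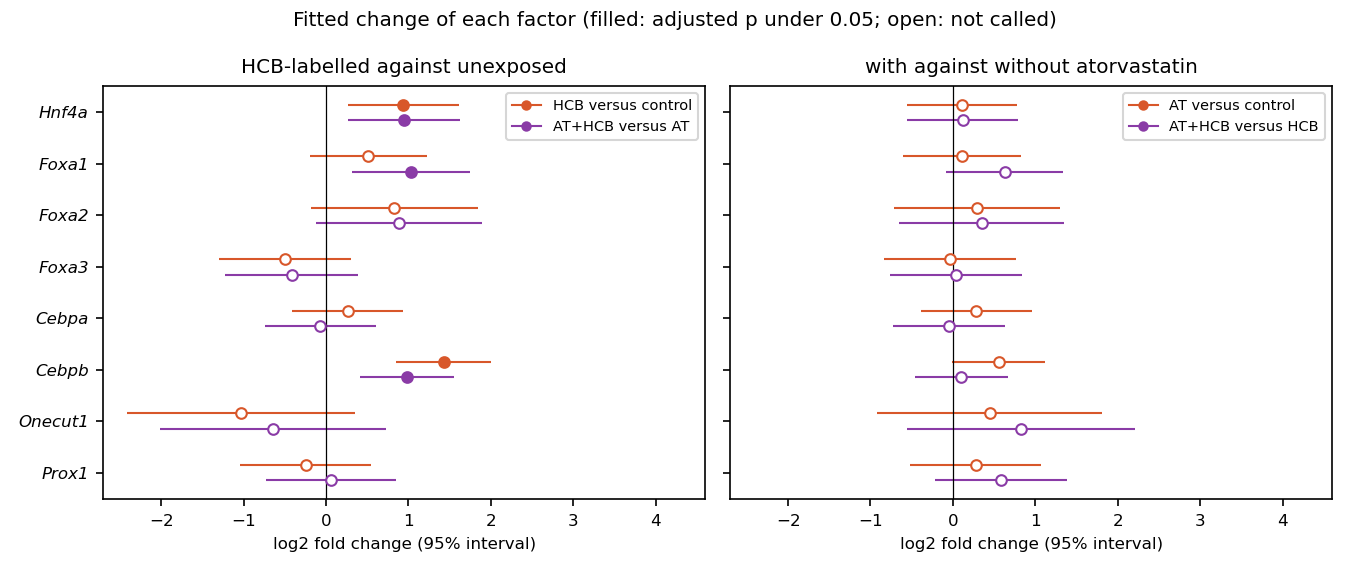
Fitted log2 fold change with its 95% interval for each factor, in the 2 comparisons of HCB-labelled with unexposed libraries (left) and the 2 comparisons with and without atorvastatin (right). Filled points passed an adjusted p of 0.05, which were Hnf4a and Cebpb in both left-hand comparisons and Foxa1 in AT+HCB versus AT, and no point on the right is filled.

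With atorvastatin, 0 of the 8 factors passed the test, in AT against control or in AT+HCB against HCB, and 0 of the 16591 genes did (0% in each). At an unadjusted p under 0.05, 181 and 857 genes passed, and DESeq2 called 3 and 49 genes. In AT against control, both AT libraries lay above both control libraries for Foxa1, Foxa2, Cebpb, Onecut1 and Prox1, where 10.6% of all genes were higher with no overlap. The largest of these differences was Cebpb at 0.55 ± 0.26 (95% interval -0.02 to 1.12), followed by Onecut1 at 0.45 ± 0.60. On library totals 2 of the 5, Foxa2 and Prox1, were still higher with no overlap, against 14.4% of all genes. In AT+HCB against HCB, Prox1 was the only factor whose libraries did not overlap, at 0.58 ± 0.36 (95% interval -0.21 to 1.38), where 17.9% of all genes were higher with no overlap, and it overlapped on library totals. The widest intervals in these 2 comparisons were those of Onecut1, which reached -0.92 and 2.21 on the log2 scale, while that of Cebpb in AT+HCB against HCB ran from -0.46 to 0.67.

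Other hepatocyte transcription factors, from a list of 17 of which 15 were tested, gave 7 higher and 1 lower in the HCB-labelled libraries, with a median log2 difference of 0.44. Of all genes 46.6% were called, 21.3% as higher and 25.3% as lower. The share of the list called in either direction is near that background, while the split of its calls leans to higher. Zhx2, a repressor of fetal liver genes, rose from 6.66 ± 0.48 CPM (SD, n = 4) to 33.8 ± 7.00 CPM (SD, n = 4), a log2 difference of 2.34 ± 0.20 (adjusted p = 6.72e-06). Zbtb20, which represses Afp after birth, rose by 1.48 ± 0.20 (adjusted p = 0.000207). Nr1h3, the oxysterol receptor LXRα, rose by 1.30 ± 0.17 (adjusted p = 0.000124). Ppara, the receptor that drives fatty acid oxidation, fell by 1.19 on the log2 scale (SE 0.17, adjusted p = 0.000297). None of these 4 genes overlapped between the sides.

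Close relatives of the 8 factors gave 0 higher and 1 lower of 6 tested, where 21.3% of all genes were called higher and 25.3% lower. The one that fell was Cebpe, a factor of the neutrophil lineage, from 0.955 to 1.42 CPM in the unexposed libraries to 0.0450 to 0.201 CPM in the HCB-labelled ones. It moved with the neutrophil markers, and their part in it was not tested. Factors of the liver bud and bile duct gave 2 higher and 4 lower of 8 tested, where 21.3% of all genes were called higher and 25.3% lower. Sall4, a fetal hepatoblast factor, fell by 4.85 on the log2 scale (SE 0.49, adjusted p = 2.61e-05), Sox4 by 2.20 (SE 0.23, adjusted p = 2.81e-05) and Sox9, a duct and progenitor factor, by 2.08 (SE 0.25, adjusted p = 7.42e-05). Hhex, the homeobox gene of the early liver bud, rose by 0.95 ± 0.19 (adjusted p = 0.00233), a call that was lost on library totals (0.42, adjusted p = 0.163). The bile duct markers overlapped as a sum, at 12.6 to 20.5 CPM in the HCB-labelled libraries and 11.7 to 19.2 CPM in the unexposed ones, but 4 of the 5 tested moved. Epcam (0.98, adjusted p = 0.00796) and Spp1 (1.76, adjusted p = 0.00387) rose, and Sox9 and Krt7 (-2.39, adjusted p = 0.0178) fell, each with no overlap. Of these, Epcam lost its call on library totals (0.49, adjusted p = 0.116).

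Genes whose products assist or oppose the 8 factors gave 3 higher and 4 lower of 10, against the same 21.3% and 25.3% of all genes. Ppargc1a, the coactivator of HNF4A in the fasting response, fell from between 12.5 and 23.1 CPM to between 2.72 and 3.67 CPM, by 2.38 on the log2 scale (SE 0.25, adjusted p = 3.50e-05). Nr2f2, an orphan receptor that competes for HNF4A sites, fell by 0.71 (SE 0.15, adjusted p = 0.00264). Id1, which blocks helix-loop-helix factors, fell by 1.73 (SE 0.29, adjusted p = 0.000802). Cited2, a coactivator of HNF4A in the fetal liver, rose by 0.95 ± 0.19 (adjusted p = 0.00208), and this was lost on library totals (0.44, adjusted p = 0.0848).

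Textbook target genes were listed by factor. Of 11 HNF4A targets 7 rose and 0 fell, where 21.3% of all genes were called higher and 25.3% lower, with a median log2 difference of 2.09 against -0.11 for all genes. Apoa2 rose by 4.08 ± 0.23 (adjusted p = 3.63e-07), from 22.7 ± 5.12 CPM (SD, n = 4) to 378 ± 77.8 CPM (SD, n = 4). Apoc3 rose by 2.50 ± 0.32 (adjusted p = 0.000135), Serpina1 by 2.55 ± 0.23 (adjusted p = 1.21e-05) and the clotting factor F9 by 2.09 ± 0.24 (adjusted p = 5.68e-05). The Serpina1 row was low in every library, at 1.05 to 1.92 CPM in the unexposed ones and 8.05 to 10.6 CPM in the HCB-labelled ones. Apob at 0.10, Mttp at -0.08 and F7 at -0.28 were among those that did not pass, so the list did not move as a whole.

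Of 10 C/EBP targets 7 rose and 0 fell, against the same shares of all genes, with a median of 1.75. Orm1, an acute phase protein, rose from between 4.62 and 8.76 CPM to between 343 and 681 CPM, by 6.36 ± 0.35 on the log2 scale (adjusted p = 3.63e-07). Crp rose by 3.79 ± 0.34 (adjusted p = 1.21e-05), the urea cycle gene Arg1 by 2.84 ± 0.27 (adjusted p = 1.77e-05) and Hamp, which encodes hepcidin, by 4.67 ± 0.59 (adjusted p = 0.000276). Tat, Pck1 and Alb stand in both the C/EBP and the FOXA list.

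The 7 FOXA targets moved both ways, with 2 higher and 3 lower, against 21.3% and 25.3% of all genes, and a median of -0.60. Tat, a tyrosine-degrading enzyme that appears after birth, rose by 1.53 ± 0.37 (adjusted p = 0.00660). Igfbp1 fell by 5.09 (SE 0.32, adjusted p = 9.09e-07), from between 805 and 1572 CPM to between 18.9 and 44.8 CPM. Afp, the fetal albumin-like protein and a hepatoblast marker, fell by 7.72 (SE 0.54, adjusted p = 1.87e-06). G6pc1 fell by 1.33 (SE 0.37, adjusted p = 0.0129) and lost its call without control 2 (0.0577), HCB 2 (0.0643) or AT_HCB 2 (0.0549). The target lists hold genes that change between fetal and adult liver, and the hepatoblast markers moved with them, so their counts are given as counts of genes and not as a measure of factor activity.

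**Figure D5:**
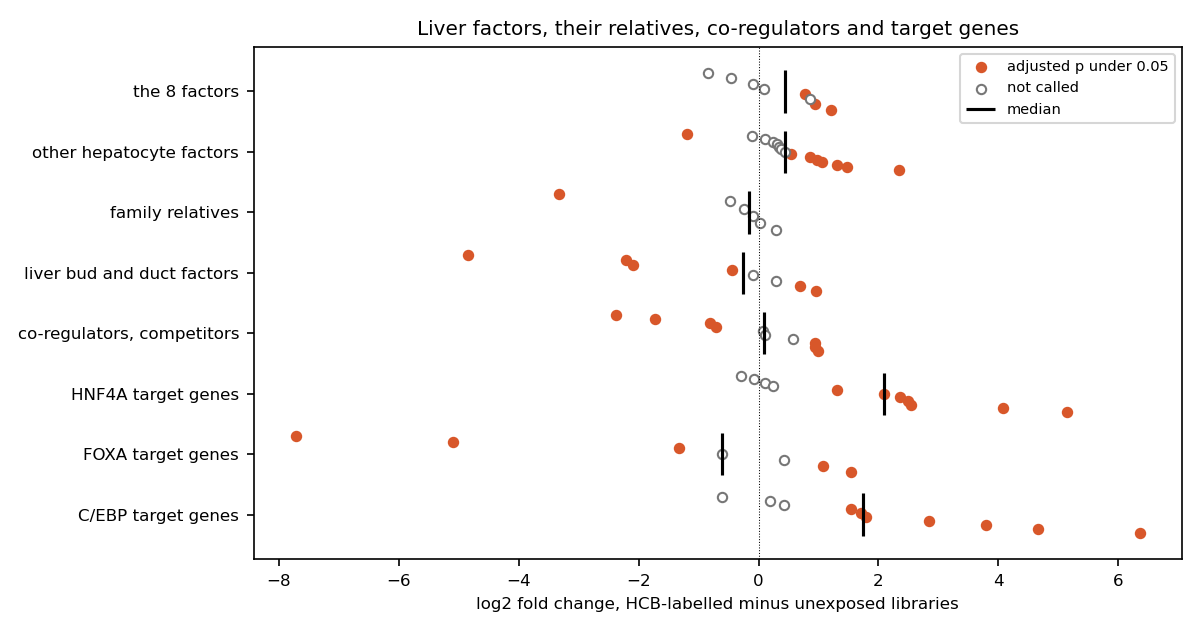
Log2 fold change of HCB-labelled minus unexposed libraries for each tested gene of the 8 factors, 4 lists of other factors and 3 target lists, with filled points for an adjusted p under 0.05 and a bar at each list's median. The median is 0.43 for the 8 factors, 2.09 for the HNF4A targets and -0.60 for the FOXA targets.

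The genes most like each factor were ranked by Pearson's r of log2 CPM over the 8 libraries, which fall into an HCB-labelled and an unexposed cluster, so r is used as a ranking only. For Hnf4a these were C2cd2l (r = 0.991), Ppm1b (0.988) and Slc25a39 (0.985), and for Cebpb they were Fgf11 (0.990), Pkdcc (0.989) and B3galnt2 (0.984). All of these were low in the unexposed and high in the HCB-labelled libraries, as C2cd2l was, at 17.6 to 27.1 CPM against 32.9 to 52.4 CPM. For Prox1 they were Smarca4 (0.990), Sf1 (0.986) and Dvl3 (0.983). Smarca4, a chromatin remodelling ATPase, was 38.9 CPM in HCB 1 and between 64.1 and 77.5 CPM in the others, so the likeness lies mostly in that library. For Onecut1 they were Prkab1 (0.972), Slc4a11 (0.967) and RGD1307554 (0.958), with Prkab1 lowest in HCB 1 at 31.2 CPM and AT_HCB 2 at 33.9 CPM. For Foxa1 they were Atp6v0a1 (0.990), Klhl26 (0.988) and Sec16a (0.986), and for Foxa2 Nt5dc3 (0.978), Ttc17 (0.974) and Fyco1 (0.970). For Cebpa they were Alkbh8 (0.962), Zbtb8b (0.880) and Rps6ka1 (0.877), and for Foxa3 LOC691422 (0.981), LOC120101650 (0.954) and Snord12 (0.943). Zbtb8b, LOC120101650 and Snord12 had mean levels of only 0.252, 0.180 and 0.258 CPM.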

How the data were processed

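Liver RNA of 8 rats was measured, 2 in each of 4 groups taken from the labels. One gene of the lists is not reported here by name. The authors deposited 1 table of whole-number read counts per gene and 1 summary of assignment classes. The submitters' processing notes name fastp 0.23.4, STAR 2.7.10b and the mRatBN7.2 build. Per the file headers, exon reads were counted with featureCounts 2.0.6 on Ensembl release 111, with no strand option and none to count pairs, so mates appear to be counted singly. The tests used edgeR 4.0.16 in R 4.3.3, with TMM factors, filterByExpr and robust quasi-likelihood fits of 4 groups (4 residual degrees of freedom). CPM are scaled by TMM (log values add 2 counts), and TPM use the deposited gene lengths. Alternatives were DESeq2 1.42.0, its size factors, library totals, other filters, no robust estimation, halved counts, a replicate block, 2 groups alone and left-out libraries. The count of libraries that do not overlap on library totals, and the marker genes' differences on that scaling, were added after the data were seen. The edgeR fit was tested on simulated data. The 8 genes and the lists, 145 of whose 148 genes were found, were chosen with earlier results of these data known. Named in each list of factors or targets were up to 4 genes past the threshold with the smallest p, and for each factor the 3 most alike genes. Markers, RefSeq windows (GRCr8) and motifs serve as description only. Intervals cover the fitted spread of 2 rats a group, and counting error was small at these depths.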

Additional observations from a re-analysis of the deposited data

How the results depend on the processing

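The Hnf4a, Foxa1 and Cebpb calls over all 8 libraries and their losses are given above, with the cause of each loss not tested. With 2 rats a group, differences within a group's spread were not detectable, and counts per factor were not the limit. Replicate numbers do not pair the libraries: the correlation of replicate differences was 0.27 between control and AT and between -0.05 and 0.05 for the other pairs of groups. The replicate block called Foxa2 (0.76, adjusted p = 0.0450) over all 8 libraries, ended both Hnf4a calls with 2 libraries a group (0.94 in each), and changed no other call of a factor or named gene.

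Genes called numbered 7728 over all 8 libraries, 4466 in HCB versus control and 4571 in AT+HCB versus AT. Without both libraries richest in reads outside exons they numbered 4643, 2108 and 2147. Leaving out 1 library gave 2164 to 4622 in HCB versus control (fewest without control 1, 2595 without HCB 1) and 1902 to 4819 in AT+HCB versus AT (fewest without AT_HCB 1, 2504 without AT_HCB 2, 2629 without AT 1). AT versus control, AT+HCB versus HCB and the interaction gave 0 genes, with 391 for the interaction at an unadjusted p under 0.05, and 3, 49 and 5 with DESeq2, 76, 179 and 70 with no filter, and 0 to 33, 0 to 6 and 0 to 5 with 1 library left out.

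Among the 8 factors, signs that turned belonged to values that were not called in the main fit. The endothelial marker Kdr, called higher with TMM, turned on library totals as given above. On library totals these were Cebpa over all 8 libraries (-0.46) and in HCB versus control (-0.18), Prox1 in AT+HCB versus AT (-0.58), and Foxa3 in AT versus control (0.14) and AT+HCB versus HCB (-0.033). Without both libraries richest in reads outside exons they were Cebpa (-0.17) and Hnf4a (-0.19) in AT versus control, and Cebpa (0.38) and Foxa3 (0.088) in AT+HCB versus AT. With 1 library left out, over all 8 libraries Cebpa ran from -0.069 to 0.32 and Prox1 from -0.48 to 0.19. In HCB versus control Foxa1 ran from -0.080 to 0.96, Foxa2 from -0.34 to 1.48 and Prox1 from -1.03 to 0.28. In AT+HCB versus AT Cebpa ran from -0.40 to 0.38, Foxa3 from -0.82 to 0.092 and Onecut1 from -2.10 to 0.10. In AT versus control Cebpa ran from -0.17 to 0.62, Foxa3 from -0.55 to 0.33 and Hnf4a from -0.15 to 0.33. In AT+HCB versus HCB Cebpa ran from -0.22 to 0.17, Cebpb from -0.036 to 0.27, Foxa2 from -0.28 to 1.52, Foxa3 from -0.40 to 0.50, Hnf4a from -0.11 to 0.41 and Onecut1 from -0.66 to 1.55. The log2 difference of the Foxa1 to Foxa2 ratio was -0.01 and ran from -0.21 to 0.16. The order of levels was the same as CPM per kb.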
